A study of Eleusine coracana with 4 samples.

Results

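The beta-amylase loci are 10 of the 55986 features counted in each library of a leaf RNA sequencing study of finger millet (Eleusine coracana) under salt. They were chosen by identifier, as rice loci of the MSU form assigned to the beta-amylase family, and the family was picked for description with its salt over control ratios in these libraries already known. Those ratios are therefore given as a description and support nothing by themselves. Identifiers come without names, so the family assignment could not be checked here, and no member is given a protein name or a compartment of its own. All 10 identifiers were found in all 4 libraries.

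Young, fully expanded leaves near the shoot apex were taken from the genotypes CO12 and Trichy 1, each grown in pots either well watered or with NaCl applied to 300 mM from day 20 after sowing. Each of the 4 groups, control and salt in either genotype, has 1 library, and how many plants went into a library and how long the salt lasted is not given in the sources used here. No pair of libraries can be tested against replicate spread, so no p-value is given, and every interval below is a 95% interval for counting error only. Libraries held between 1831353 and 6272817 total gene reads, with both salt libraries shallower than both control libraries, and the 20 most abundant features took 95.5% to 96.1% of the reads. Genes at ordinary levels thus rest on few reads, and 1 read was worth 0.159 RPM (reads per 1000000 reads of the library) in CO12 control but 0.546 in CO12 salt. The leaf label was not checked against marker genes, since no annotation of the features was used. Fewer cells of a type and less RNA per cell cannot be told apart in these whole-leaf samples.

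Beta-amylases remove maltose units from the free, non-reducing ends of starch chains. In leaves they act mainly on transitory starch, the store that chloroplasts lay down by day and break down at night, after glucan-phosphorylating enzymes have loosened the granule surface and alongside debranching enzymes. The maltose leaves the chloroplast and is turned into sucrose and other sugars in the cytosol. In Arabidopsis the family is mixed: some members are active chloroplast enzymes, some have lost activity and regulate starch breakdown, and some are nuclear proteins that act on transcription. Which of these kinds each rice locus belongs to is not annotated in the files.

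In both genotypes the control library was led by LOC_Os10g41550 and the salt library by LOC_Os03g04770 and LOC_Os10g32810. The latter 2 were 4.87-fold to 6.69-fold higher under salt, and LOC_Os10g41550 was 2.22-fold lower in CO12 and 3.59-fold lower in Trichy 1. LOC_Os07g35940 was higher under salt in CO12 but not in Trichy 1. The other 6 members had at most 6 reads in any library.

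Summed over the family, CO12 control held 169 reads (26.9 RPM, exact Poisson interval 23.0 to 31.3) and CO12 salt held 113 (61.7 RPM, 50.9 to 74.2). Trichy 1 control held 143 reads (42.7 RPM, 36.0 to 50.3) and Trichy 1 salt held 173 (71.9 RPM, 61.6 to 83.4). The family sum was thus higher in the salt library of each genotype, and the intervals of salt and control did not overlap within a genotype. The ratio of salt over control was 2.29 (exact conditional binomial interval 1.79 to 2.92) in CO12 and 1.68 (1.34 to 2.11) in Trichy 1. The size in CO12 depended on the scaling: the log2 ratio of 1.19 became 0.67 with median-of-ratios factors and 0.43 with TMM factors over all features.

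**Figure D1:**
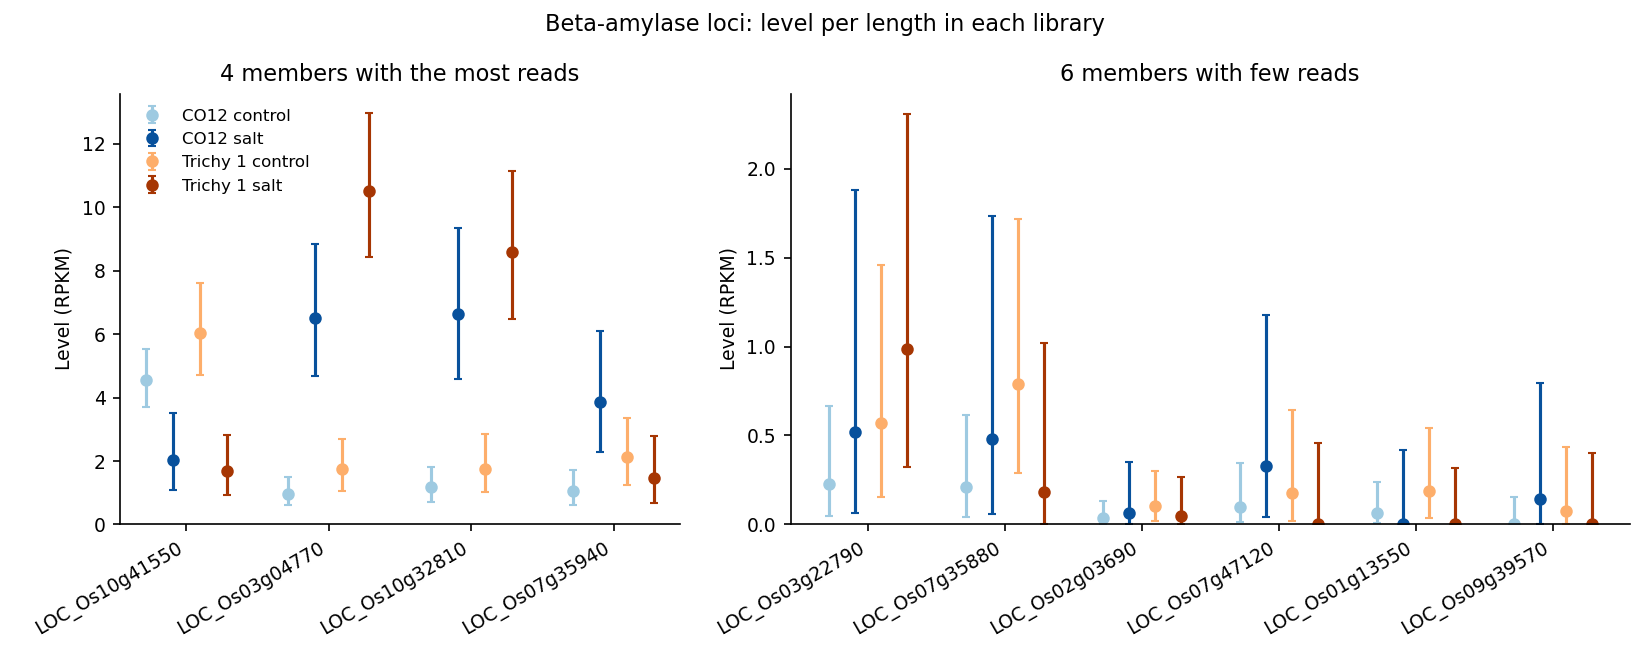
Level of each beta-amylase locus in RPKM (RPM per kilobase of gene length, linear axes) in the 4 libraries, with the 4 loci of most reads on the left and the other 6 on the right, on separate scales. Points are single libraries and bars are exact 95% Poisson intervals. LOC_Os03g04770 and LOC_Os10g32810 lay at 6.51 to 10.5 RPKM in the salt libraries and at 0.974 to 1.76 in the controls, and LOC_Os10g41550 had the opposite order.

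LOC_Os03g04770 (chromosome 3 in its identifier, gene length 3437 bp) had 21 control and 41 salt reads in CO12, and 20 control and 87 salt reads in Trichy 1. Scaled to library totals, these were 3.35, 22.4, 5.97 and 36.1 RPM. Both salt libraries lay above both controls, and their Poisson intervals (from 16.1 RPM upward under salt, up to 9.23 RPM in control) did not overlap. The ratio of salt over control was 6.69 (3.86 to 11.9) in CO12 and 6.05 (3.69 to 10.4) in Trichy 1. Of its 169 reads in all, 167 were unique, that is, matched 1 place only.

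LOC_Os10g32810 (chromosome 10, 2709 bp) had 20 and 33 reads in CO12 control and salt, and 16 and 56 in Trichy 1 control and salt. These were 3.19, 18.0, 4.78 and 23.3 RPM, again with both salt libraries above both controls and no overlap of the intervals. The ratio of salt over control was 5.65 (3.15 to 10.4) in CO12 and 4.87 (2.75 to 9.09) in Trichy 1. All but 6 of its 125 reads were unique. Its reads stayed in near step with those of LOC_Os03g04770: the read ratio of LOC_Os03g04770 to LOC_Os10g32810 was 1.05 without and 1.24 with salt in CO12, and 1.25 without and 1.55 with salt in Trichy 1, with overlapping intervals throughout (the last was 1.10 to 2.21).

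LOC_Os10g41550 (chromosome 10, 3468 bp) went the other way. It had 99 reads in CO12 control and 13 in CO12 salt, or 15.8 and 7.10 RPM. In Trichy 1 it had 70 reads in control and 14 under salt, or 20.9 and 5.82 RPM. Both controls lay above both salt libraries, with Poisson intervals from 12.8 RPM upward in control and up to 12.1 RPM under salt. It was 2.22-fold lower under salt in CO12 (1.24 to 4.32) and 3.59-fold lower in Trichy 1 (2.01 to 6.91), and 193 of its 196 reads were unique.

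These 3 loci were the only members with at least 20 reads in a library of each salt comparison, the floor used for counts of features. LOC_Os10g41550 passed it only through the controls, and LOC_Os10g32810 in Trichy 1 only through the salt library. In CO12, 2 of the 3 were at least 2-fold higher, against 10.8% of the 1025 features over the floor, and 1 was at least 2-fold lower, against 19.1%. In Trichy 1 the same 2 were higher, against 11.7% of 727 features, and the same 1 was lower, against 17.2%. Since the family was picked with these ratios known, nothing is read from these shares. Ranked by log2 ratio from the highest, LOC_Os03g04770 was number 12 in CO12 and number 12 in Trichy 1, and LOC_Os10g32810 was number 17 and number 16. LOC_Os10g41550 was number 157 from the lowest in CO12 and number 21 in Trichy 1. Of the 686 features over the floor in both salt comparisons, 6 were at least 4-fold higher in both genotypes, and LOC_Os03g04770 and LOC_Os10g32810 were 2 of them.

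The median feature over the floor had a log2 ratio of salt over control of -0.15 in CO12 and -0.25 in Trichy 1. Set against that median, LOC_Os03g04770 stood at 2.85 in CO12 and 2.81 in Trichy 1, LOC_Os10g32810 at 2.61 and 2.49, and LOC_Os10g41550 at -0.99 and -1.57 (differences of log2 ratios). By this measure LOC_Os10g41550 in CO12 fell just short of 2-fold.

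**Figure D2:**
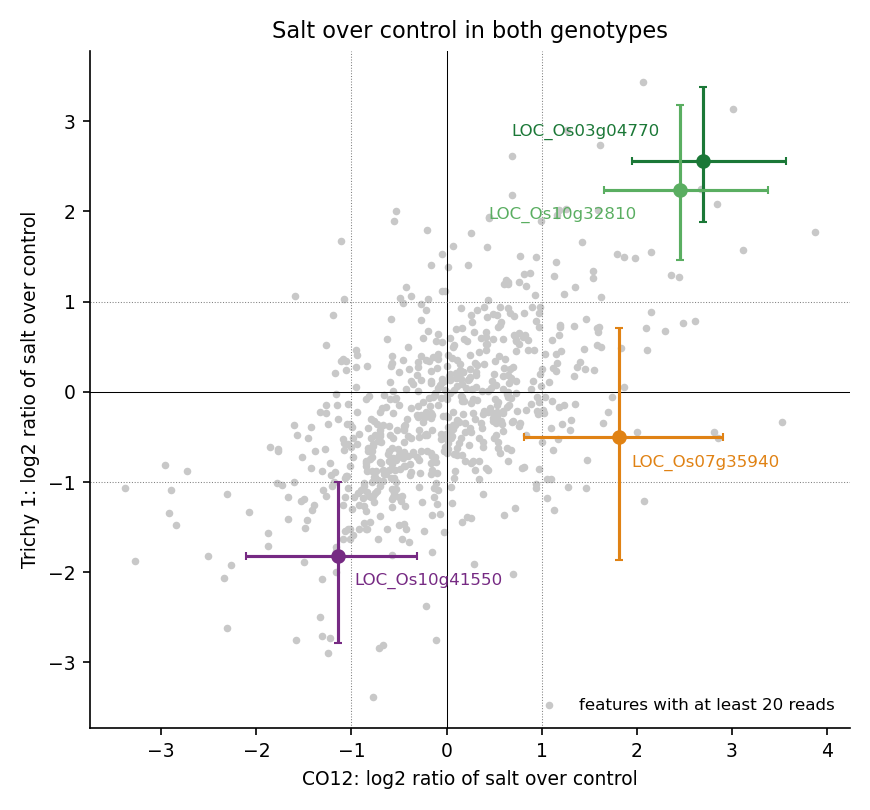
Log2 ratio of salt over control in CO12 (x axis) and Trichy 1 (y axis). Grey points are the 686 features with at least 20 reads in a library of each comparison, coloured points are 4 beta-amylase loci with 95% counting intervals, and dotted lines mark 2-fold. LOC_Os03g04770 and LOC_Os10g32810 lie at the upper right (2.70 and 2.56, 2.45 and 2.24), LOC_Os10g41550 at the lower left (-1.14 and -1.82), and LOC_Os07g35940, which was under the floor, at the lower right (1.81 and -0.50).

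The shares of the family's reads held by the 3 loci over the floor had the same order of salt and control in both genotypes, and that of LOC_Os07g35940 had not. LOC_Os10g41550 held 58.6% of the family's reads in CO12 control (Clopper-Pearson interval 50.8% to 66.1%) and 11.5% in CO12 salt (6.27% to 18.9%). In Trichy 1 its share was 49.0% in control (40.5% to 57.4%) and 8.09% under salt (4.49% to 13.2%). LOC_Os03g04770 and LOC_Os10g32810 together went from 24.3% without salt to 65.5% with it in CO12, and from 25.2% to 82.7% in Trichy 1. The share of LOC_Os07g35940 was 10.1% without and 15.9% with salt in CO12, but 12.6% and 5.20% in Trichy 1. The 6 loci of few reads held 7.10% and 7.08% in CO12, and 13.3% and 4.05% in Trichy 1.

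A ratio of loci within a library needs no scaling between libraries, so it is free of the choice of library size. This ratio was chosen after the values were seen. The reads of LOC_Os03g04770 plus LOC_Os10g32810, divided by those of LOC_Os10g41550, came to 41 over 99, or 0.414, in the control of CO12 and to 74 over 13, or 5.69, in its salt library. In Trichy 1 they came to 36 over 70, or 0.514, in control and to 143 over 14, or 10.2, under salt. The ratio was 13.7 times higher under salt in CO12 (exact conditional interval 6.60 to 29.7) and 19.9 times higher in Trichy 1 (9.64 to 42.1). With unique reads these values were 13.8 and 18.5.

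**Figure D3:**
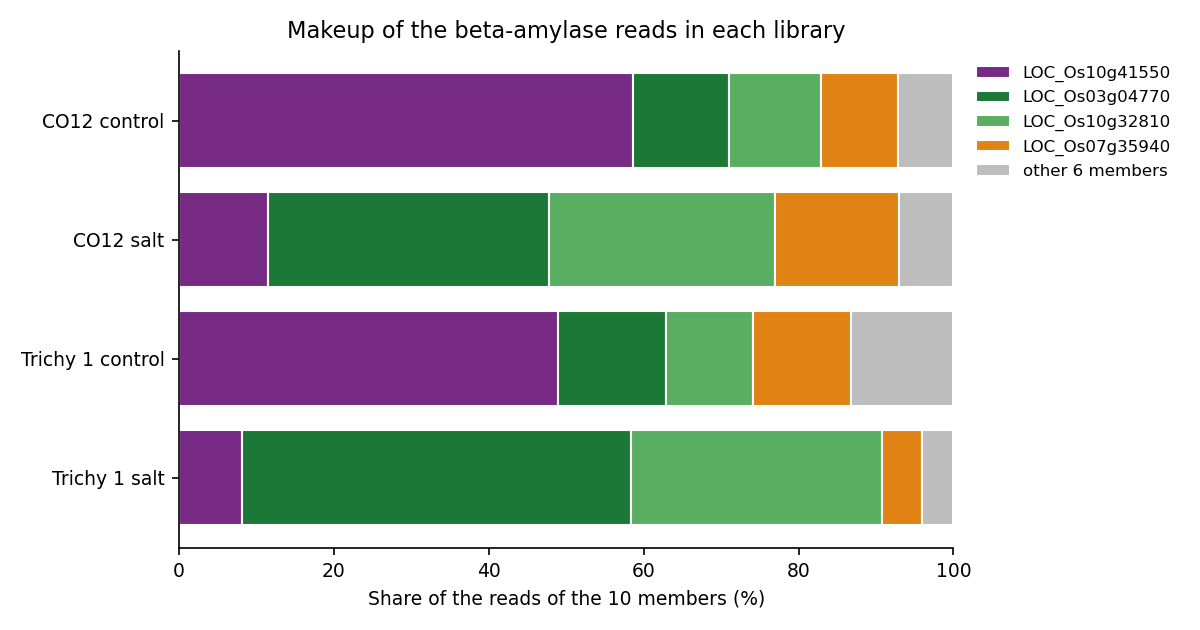
Share of the reads of the 10 beta-amylase loci held by each locus, in percent, with 1 bar per library. LOC_Os10g41550 takes 58.6% and 49.0% in the controls and 11.5% and 8.09% in the salt libraries, while LOC_Os03g04770 and LOC_Os10g32810 together take 65.5% and 82.7% under salt.

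Levels of different loci can be compared per length, in RPKM. In CO12 control, LOC_Os10g41550 was at 4.55 RPKM, followed by LOC_Os10g32810 at 1.18, LOC_Os07g35940 at 1.07 and LOC_Os03g04770 at 0.974. LOC_Os10g41550 was 3.87-fold over the next locus (2.37 to 6.60), and the other 3 did not differ beyond counting error. In Trichy 1 control the order was LOC_Os10g41550 at 6.03 RPKM, then LOC_Os07g35940 at 2.12, LOC_Os10g32810 at 1.76 and LOC_Os03g04770 at 1.74, with only the first set apart by its interval (2.85-fold over the next, 1.68 to 5.09).

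Under salt the order per length was different. CO12 salt had LOC_Os10g32810 at 6.65 RPKM and LOC_Os03g04770 at 6.51, then LOC_Os07g35940 at 3.87 and LOC_Os10g41550 at 2.05. No step between neighbours in that order exceeded counting error, while LOC_Os03g04770 was 3.18-fold over LOC_Os10g41550 (1.67 to 6.47). Trichy 1 salt had LOC_Os03g04770 at 10.5 RPKM and LOC_Os10g32810 at 8.59, which was 5.12-fold over LOC_Os10g41550 at 1.68 (2.81 to 9.96). LOC_Os07g35940 followed at 1.47. Transcripts that match a rice locus poorly would be counted low, which was not tested, so an order between loci is less secure than a ratio of 1 locus between libraries. Finger millet is an allotetraploid, and reads of its gene copies can fall on 1 rice locus.

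LOC_Os07g35940 (chromosome 7, 2542 bp) had 17 reads in CO12 control and 18 in CO12 salt, or 2.71 and 9.83 RPM. In Trichy 1 it had 18 in control and 9 under salt, or 5.38 and 3.74 RPM. CO12 salt was the highest of the 4 libraries and CO12 control the lowest. The ratio of salt over control was 3.63 in CO12 (1.76 to 7.49) and 0.695 in Trichy 1 (0.275 to 1.63), so only the former interval left out equality. The difference between these log2 ratios, Trichy 1 minus CO12, was -2.32 (-3.79 to -0.85), from counts under the floor in every library.

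Reads of LOC_Os07g35940 were less certain than those of the other 3 leading loci, since 27 of its 62 were unique. Unique reads numbered 4 without and 11 with salt in CO12, and 9 without and 3 with salt in Trichy 1, which gave the same order of salt and control in each genotype and a log2 difference of -4.00 (-6.37 to -1.63). The files do not say which loci shared the other reads. LOC_Os07g35880 (chromosome 7, 2273 bp), close to it by number, is also a member and had 3, 2, 6 and 1 reads in the same order of libraries, all unique.

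The remaining loci were near the limit of detection at this depth. LOC_Os03g22790 (chromosome 3, 2102 bp) had 3 control and 2 salt reads in CO12 and 4 control and 5 salt reads in Trichy 1, and in the same order LOC_Os02g03690 (chromosome 2, 8662 bp) had 2, 1, 3 and 1. LOC_Os07g47120 (chromosome 7, 3344 bp) had 2, 2, 2 and 0 reads, and LOC_Os01g13550 (chromosome 1, 4833 bp) had 2, 0, 3 and 0. LOC_Os09g39570 (chromosome 9, 3831 bp) had 0, 1, 1 and 0. No salt over control interval of these 5 loci or of LOC_Os07g35880 left out equality.

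A count of 0 does not show absence in these libraries. At 3 counts of the total, 0 reads allowed up to 0.478 RPM for LOC_Os09g39570 in CO12 control, 1.64 RPM for LOC_Os01g13550 in CO12 salt, and 1.25 RPM in Trichy 1 salt for these 2 loci and LOC_Os07g47120. Pooled, the 6 loci of few reads had 12 and 8 reads in CO12 control and salt and 19 and 7 in Trichy 1, which is 1.91, 4.37, 5.68 and 2.91 RPM. The ratio of salt over control of this pool was 2.28 in CO12 (0.81 to 6.07) and 0.512 in Trichy 1 (0.182 to 1.27), and neither interval left out equality.

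Between the genotypes, LOC_Os03g04770, LOC_Os10g32810 and LOC_Os10g41550 had ratios closer to equality than between salt and control. Without salt, Trichy 1 over CO12 was 1.78 for LOC_Os03g04770 (0.918 to 3.46), 1.50 for LOC_Os10g32810 (0.726 to 3.04) and 1.32 for LOC_Os10g41550 (0.961 to 1.82). All these intervals held equality, and the direction for LOC_Os10g41550 turned with TMM factors over all features (a log2 ratio of -0.03). None of the 3 loci over the floor was 2-fold apart, against 16.7% of 1034 features. The family sum was 1.59-fold higher in Trichy 1 control than in CO12 control (1.26 to 1.99). This ratio depended on the scaling: its log2 value of 0.66 (0.33 to 0.99) became 0.22 with TMM factors over all features, below that interval. No interval was computed with those factors, so a difference beyond counting error was shown only with scaling to library totals. The sum of the 6 loci of few reads was 2.97-fold higher in Trichy 1 control (1.37 to 6.70, from 19 and 12 reads), and was not computed with another scaling.

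Under salt, LOC_Os03g04770 was 1.61-fold higher in Trichy 1 than in CO12 (1.10 to 2.40), and LOC_Os10g32810 had a ratio of 1.29 (0.825 to 2.05). Neither of these 2 members over the floor was 2-fold apart, against 12.8% of 576 features. LOC_Os10g41550, with 14 and 13 reads, had a ratio of 0.819 (0.357 to 1.89). LOC_Os07g35940 was 2.63-fold lower in Trichy 1 salt than in CO12 salt (1.12 to 6.64). The family sum had a ratio of 1.16 (0.914 to 1.49).

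The salt ratios of the 3 loci over the floor did not differ between the genotypes beyond counting error. The difference of log2 ratios, Trichy 1 minus CO12, was -0.13 for LOC_Os03g04770 (-1.16 to 0.89), -0.21 for LOC_Os10g32810 (-1.33 to 0.91) and -0.68 for LOC_Os10g41550 (-1.83 to 0.48). These intervals are wide enough to hold a 2-fold difference in at least 1 direction. None of the 3 was 2-fold apart, against 25.9% of the 686 features over the floor in both genotypes. For the family sum the difference was -0.44 (-0.91 to 0.02), and for the pool of the 6 loci of few reads it was -2.07 (-3.81 to -0.32). That pool held 12 and 8 reads in CO12 control and salt and 19 and 7 in Trichy 1. Its difference was not computed with another scaling.

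The salt ratios kept their direction, and stayed at least 2-fold, under each of the 6 other settings of scaling, reads and prior for the 3 loci over the floor. In CO12, LOC_Os03g04770 ran from 1.95 to 2.78 on the log2 scale, LOC_Os10g32810 from 1.70 to 2.53 and LOC_Os10g41550 from -1.89 to -1.06. In Trichy 1 the ranges were 2.38 to 2.74, 2.06 to 2.42 and -2.00 to -1.64. A scaling moves all loci of a comparison alike, so a lower value for the 2 loci that were higher comes with a lower value for LOC_Os10g41550.

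**Figure D4:**
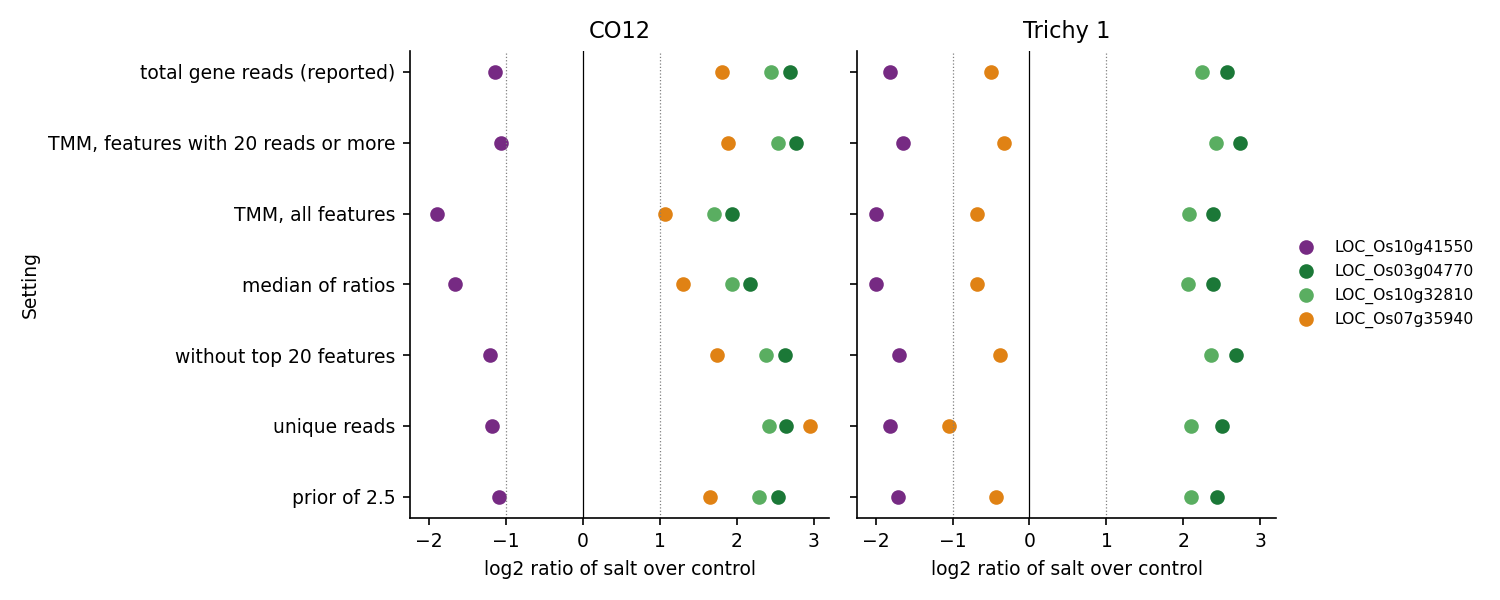
Log2 ratio of salt over control of 4 beta-amylase loci (x axis, dotted lines at 2-fold) under each setting of scaling, read type and prior count (y axis), for CO12 on the left and Trichy 1 on the right. Each point is 1 ratio of 2 libraries. LOC_Os03g04770 and LOC_Os10g32810 stay above 1 and LOC_Os10g41550 below -1 in every setting shown.

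Across the 4 libraries, the profile of LOC_Os10g32810 was the closest of 574 other features with at least 100 reads to that of LOC_Os03g04770 (Euclidean distance of centred log2 RPM 0.401). In the other direction, 1 feature was closer to LOC_Os10g32810 than LOC_Os03g04770 was. To LOC_Os03g04770, 553 features were closer than LOC_Os10g41550 was (distance 4.17). Among 572 features outside the family, the profile most like that of LOC_Os10g41550, the member with the most reads, was LOC_Os11g47980 at a distance of 0.141. It had 21.0 RPM without and 9.83 with salt in CO12, and 27.5 and 8.73 RPM in Trichy 1. LOC_Os05g48630 came next at 0.293, with 12.3, 6.01, 13.4 and 4.57 RPM in that order. The next 2 lay at 0.299 and 0.310 and were also lower in both salt libraries. With 4 libraries such likeness describes only the order and size of the differences between salt and control and between genotypes. The family was picked with its salt ratios known. The closeness of LOC_Os03g04770 and LOC_Os10g32810, and their distance from LOC_Os10g41550, therefore restate those ratios and support nothing by themselves.

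Neighbouring features in the table had few reads. Of the 3 features on each side of LOC_Os03g04770, none had more than 7 reads in a library, and the same limit held around LOC_Os10g32810. Around LOC_Os10g41550 no neighbour had more than 12 reads, and around LOC_Os07g35940 none had more than 6. Whether reads of neighbours overlap those of the members was not tested. LOC_Os10g32820, next to LOC_Os10g32810, had more reads in both salt libraries than in the controls (0 and 7 in CO12, 1 and 7 in Trichy 1). It was singled out among the neighbours after its values were seen.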

How the data were processed

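Ribosomal RNA was depleted and libraries were sequenced on an Ion Proton instrument, per the labels' protocols. The deposited tables give, per the file headers, a count of total gene reads and of unique gene reads for each feature, a gene length in bases, and RPKM. The deposited RPKM equalled total gene reads per kilobase of gene length and 1000000 reads within a relative difference of 5.7e-08. The aligner and its settings, the genome build and the use of strand are each not given in the sources used here. Molecular identifiers are not mentioned, and whether PCR copies were removed is not given, so such copies may count as reads.

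Counts were scaled to library totals. Log2 ratios carry a prior of 0.5 count scaled to depth. Ratios and shares have exact (Clopper-Pearson) 95% intervals, levels exact Poisson intervals, and differences of log2 ratios 1.96 standard errors from the 4 counts. Features were counted with at least 20 reads in a compared library. No fold is given where both counts are at most 3. The members, the lists and the rules were chosen with earlier results of these data known. All members are named, and outside the family the features of nearest profile, of which 2 of 4 are printed by identifier. The neighbouring feature LOC_Os10g32820 is also named, picked after its values were seen. Lists of other starch genes and leaf markers were not used, for lack of an annotation. TMM factors came from edgeR 4.0.16 in R 4.3.3, and the rest from Python 3.11.15 with scipy 1.17.1. The functions were tested on simulated data.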

Additional observations from a re-analysis of the deposited data

Results flagged for a closer look

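LOC_Os07g35940 is the 1 member whose salt over control ratio had opposite directions in the genotypes with the counting interval of the difference leaving out 0. The log2 difference, Trichy 1 minus CO12, was -2.32 (-3.79 to -0.85), from 17 and 18 reads in CO12 and 18 and 9 in Trichy 1. The difference was not tested, since each group has 1 library, and 35 of the 62 reads of this locus were not unique. In Trichy 1 alone the interval of the ratio held equality.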

How the results depend on the processing

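No paired analysis was possible because each comparison within a genotype sets 1 library against 1. A fit over all 4 libraries with genotype as a term was not run, since it would take the genotypes as replicates. The alternatives were planned, except TMM factors over all features and the ratio within a library, which were added after the data were seen. Depth is a limit: no member reached 100 reads in a library, 6 had at most 6, and intervals cover counting error only. Of 120 log2 ratios of the 4 leading loci, 117 stayed within their counting interval, and 3 moved: LOC_Os03g04770 in CO12 with TMM factors over all features (1.95), and LOC_Os07g35940 with unique reads in CO12 (2.96) and in the difference of response (-4.00). Shares and RPKM with unique reads stayed within their intervals in 37 of 40 cases each, and the others were of LOC_Os07g35940.

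The log2 ratio of the family sum became 0.67 in CO12 with median-of-ratios factors. With TMM factors over all features it was 0.43 in CO12, 0.22 between the genotypes without salt and 0.14 for the difference of response, whose sign turned though its interval held 0. Those factors moved the median of all features by -0.74 in CO12, -0.18 in Trichy 1, -0.43 between the genotypes without salt and 0.14 under salt. Median-of-ratios factors moved it by -0.51, -0.18, -0.20 and 0.14. TMM factors of features over the floor moved it by 0.18 in Trichy 1, and totals without the 20 most abundant features by 0.12 in Trichy 1 and -0.20 between the genotypes without salt.

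Members at least 2-fold apart numbered 3 in each salt comparison and 0 in the others. A floor of 100 left 0. A floor of 10 gave 4 in CO12, 1 between the genotypes under salt and 1 for the difference of response. No floor gave 9 in CO12, 7 in Trichy 1, 5 between the genotypes without salt, 4 under salt and 5 for the difference. Most had few reads, some at most 3 per library, and without shares nothing is read from these counts.

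Over all features, counts in that order of comparisons were 702, 470, 475, 201 and 401 with a floor of 10 reads, 70, 48, 40, 10 and 47 with 100 reads, and 19824, 14743, 17325, 13244 and 8776 with no floor. The count was 504 in CO12 with TMM factors over all features, and 110 for the difference with unique reads. The split of higher and lower features under salt was 111 and 196 in CO12, and 35 and 469 with TMM factors over all features, 50 and 377 with median-of-ratios factors and 63 and 190 with unique reads. In Trichy 1 it was 85 and 125, 105 and 83 with TMM factors of features over the floor, 96 and 99 without the 20 most abundant features, and 70 and 173 with median-of-ratios factors.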

Other observations

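The feature next to LOC_Os10g32810 in the table, LOC_Os10g32820 (1230 bp), singled out after its values were seen, had 0 reads without and 7 with salt in CO12, and 1 without and 7 with salt in Trichy 1. Of these, 7 and 5 reads of the salt libraries were unique. Whether its reads overlap those of LOC_Os10g32810 was not tested.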
